A study of Mus musculus with 23 samples.

Results

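The 78 genes described here encode the proteins of the cytosolic ribosome. The rule uses name and level and not the difference between genotypes, but it and the gene lists below were chosen with earlier results of these data known. Protein-coding genes whose symbol is Rpl or Rps followed by a number, or Rplp followed by a number, were taken, leaving out the S6 kinase genes, Rps19bp1 and named pseudogenes. Of 84 such genes, 78 had a mean of at least 50 raw read counts in both the male and the female table, out of 22852 genes listed in both. The members with the lowest mean counts were Rpl13a (227.5 in the male and 232.2 in the female table) and Rpl22l1 (378 and 383). The nearest genes outside, by the lower mean, were Rpl24 (29.0 and 36.2), Rps23rg1 (23.9 and 37.4) and Rps10 (23.2 and 30). Rpl36al (27.6 and 14.8), Rpl39l and Rpl3l were also below the minimum. Of the 50-base stretches of the longest coding transcript, 81.7% for Rpl24 and 51.8% for Rps10 also occurred in transcripts of other genes. The share was 17.2% for Rps23rg1, 24.9% for Rpl36al and 0% for Rpl39l and Rpl3l. Counts of genes with shared stretches also depend on how the authors' counting placed reads, which was not tested. The members divide into 44 proteins of the large subunit, 31 of the small subunit and the 3 proteins of the stalk, Rplp0, Rplp1 and Rplp2.

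Ribosomal proteins are made in matched amounts and assembled on ribosomal RNA in the nucleolus. Their mRNAs are among the most abundant of any cell, and their genes are a large part of the so-called TOP class, whose transcripts begin with a C followed by a run of pyrimidines (a 5′ terminal oligopyrimidine tract) through which the mTOR pathway and the RNA-binding protein Larp1 control translation. The liver makes the plasma proteins of the body and holds many ribosomes, which it loses in starvation and rebuilds on feeding.

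The livers came from 23 mice: 5 control males (replicates 1, 2, 3, 4 and 6), 6 LKO males, 6 control females and 6 LKO females. All 4 groups carried the B100 background, were given the diet labelled WD for 16 weeks and were fed when killed. LKO is read from the series title as ablation of Cpt1a in the liver. Cpt1a makes acylcarnitines from long-chain fatty acids at the outer mitochondrial membrane, the step before their oxidation. The Cre line or other agent of the deletion is not given in the sources used here. Nor are the age of the mice and the meaning of B100. The p-values below weigh each difference against the spread between these samples. Total counts ranged from 14224665 to 19626662 per liver. Cpt1a was 303 to 430 CPM (read counts scaled to a common library size, with TMM factors throughout) in control males and 42.2 to 96.7 CPM in LKO males, and it fell by 2.50 ± 0.19 (SE) on the log2 scale (edgeR quasi-likelihood test, adjusted p = 9.97e-05). In females it was 285 to 430 CPM in controls and 61.7 to 86.2 CPM in LKO livers, and it fell by 2.35 ± 0.12 (adjusted p = 3.69e-08). The 8 hepatocyte markers summed to between 52501 and 99421 CPM in every liver, against 7.42 to 41.7 CPM for the 8 lymphocyte markers.

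The starts of these genes carry the pyrimidine run of TOP mRNAs more often than gene starts in general, and a few are printed to show how it looks and where it fails. The motif searched on the sense strand was a C followed by at least 4 bases that are C or T. RefSeq promoters (GRCm38.p6) were matched by symbol for 58 of the 78 genes, with 69 annotated starts. The C of the motif lay exactly at the annotated start in 13 of 69 (18.8%), against 2.51% of the 32851 promoters in the RefSeq table. It lay within the 11 bases centred on the start in 31 of 69 (44.9%), against 18.3% of all promoters. A run that began further upstream was also counted where it reached these positions. Below are 10 bases before and 20 bases from the annotated start, on the sense strand. The pyrimidine run is in capitals from its first C within the 11 bases.
Rps6: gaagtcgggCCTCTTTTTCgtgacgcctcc
Rpl35: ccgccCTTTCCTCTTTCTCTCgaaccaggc
Rpl15: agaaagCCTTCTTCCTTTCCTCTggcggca
Rps26: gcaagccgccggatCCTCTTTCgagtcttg
Rps27: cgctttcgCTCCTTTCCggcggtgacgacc
Rps27rt: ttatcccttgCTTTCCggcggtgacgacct
Rpl23: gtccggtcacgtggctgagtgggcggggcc
Rps6 (chr4:86857358-86857387, minus strand) encodes the small-subunit protein that S6 kinases phosphorylate. Rpl35 (chr2:39005122-39005151, minus) and Rpl15 (chr14:18270977-18271006, minus) hold marked runs of 16 and 17 bases, and the run of Rpl35 continues upstream of its capitals. Rps26 (chr10:128626497-128626526, minus) is among the members with the lowest p in males, and its run of 8 bases begins downstream of the annotated start. Rps27 (chr3:90213639-90213668, minus) and its retrogene Rps27rt (chr9:114982730-114982759, minus) are a parent and a copy to which the female results return. They share an unbroken stretch of 38 bases within the 50 bases that follow their starts. Rpl23 (chr11:97782430-97782459, minus) has no run in this window. A match describes the letters only, and an annotated start may lie a few bases from the true one. Genotype differences were of like size with and without the run: in males the median log2 fold change was -0.29 for the 29 genes with a run in the 11 bases and -0.26 for the 29 without, and in females it was 0.053 and 0.064.

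Levels per length differed widely between members. In the deposited FPKM (fragments per kilobase of gene length, scaled to library size), the stalk protein Rplp1 was the most abundant, at 1249 ± 177 (SD, n = 5) in control males. Rpl36 followed at 585 ± 112 FPKM and Rps15, a protein of the small-subunit head, at 499 ± 72.6 FPKM, and Rps2 was level with Rps15 at 498 ± 57.1 FPKM. Rpl36 and Rps15 differed by less than the SD of Rpl36. The lowest were Rpl13a at 7.35 ± 1.04 FPKM, Rpl21 at 10.99 ± 5.36 FPKM and Rpl22l1 at 11.7 ± 1.19 FPKM, which differed from each other by less than the SD of Rpl21. Rplp1 was also the highest in control females, at 1131 ± 73.1 FPKM, and Rpl13a the lowest, at 5.69 ± 0.369 FPKM. Many members have processed pseudogenes with nearly the same sequence, so these levels also depend on how the authors' counting placed reads: a median of 41.0% of the 50-base stretches of a member's transcripts occurred in the transcript of another gene.

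In males, every ribosomal protein gene had a lower fitted mean in LKO than in control livers, by small amounts that passed the test for no single gene. The 78 members together took 2.003, 1.62, 1.89, 1.90 and 2.03% of all gene counts in control males 1, 2, 3, 4 and 6, and a lowest share of 1.43%, a median of 1.63% and a highest share of 1.88% in the 6 LKO males. The means were 1.89 ± 0.165% (SD, n = 5) and 1.63 ± 0.146% (SD, n = 6), so that LKO males differed from control males by -13.5% of the control share. Control male 2 lay as low as the middle of the LKO group and LKO male 3 almost as high as control males 3 and 4, so the groups overlapped. In bulk liver, fewer cells of a type and less RNA per cell cannot be told apart.

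**Figure D1:**
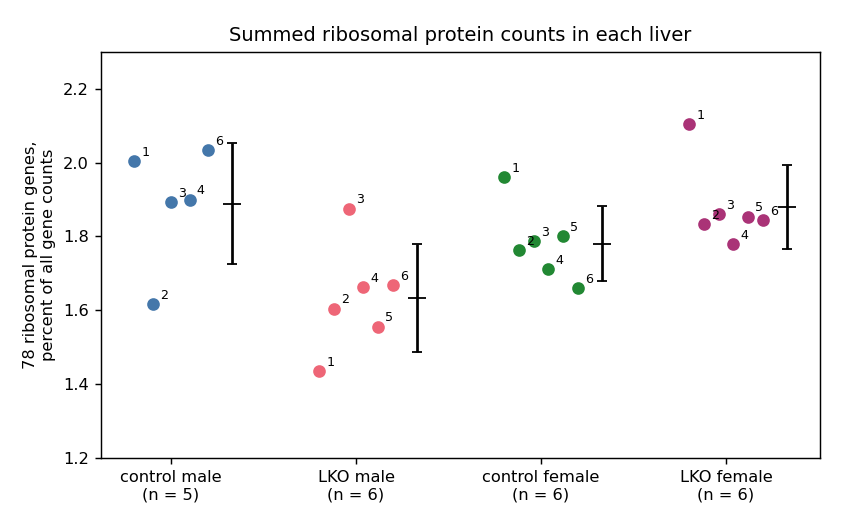
Summed counts of the 78 ribosomal protein genes as a percent of all gene counts. Each point is 1 liver with its replicate number, and the bar beside each group is the mean ± SD. The axis starts above 0. Control male 2 (1.62%) and LKO males 3 (1.88%), 4 (1.66%) and 6 (1.67%) lie inside the range of the other genotype. LKO female 1 (2.10%) is the highest of all 23 livers.

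All 78 members had a log2 fold change below 0 in males, against 47.9% of the 13805 genes tested (52.1% were above 0). Their median was -0.28 (a change in level of -17.9%), the middle 50 percent lay between -0.33 and -0.26, and the median of all genes tested was 0.010. The subunits had like medians, of -0.29 for the 44 large-subunit, -0.27 for the 31 small-subunit and -0.28 for the 3 stalk genes. No member passed the test at an adjusted p under 0.05 (edgeR quasi-likelihood test, lowest adjusted p = 0.250), in a comparison in which Cpt1a alone was called (0.00724% of genes). At an unadjusted p under 0.05, 58 members (74.4%) were lower and 0 were higher, against 7.22% and 5.23% of all genes tested. With library size alone as the scaling the same count was 37, and with each replicate left out in turn it was 40 to 67. Most members were high or low together in a given liver, so these counts are not of independent genes. DESeq2 called 1 member, Rps20 (adjusted p = 0.0384), with 0.841% of its genes called lower and 0.433% higher. The authors' deposited table called 3 lower, with Rps20 and Rps15 among them (0.299% of its genes), and 0 higher (0.139%). Its log2 fold changes matched those of DESeq2 closely (Rps20 at -0.349 in both), so its calls are not separate evidence.

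Among small-subunit genes, Rps20 (chromosome 4, 3831334 to 3835665 in mm39, minus strand) had the lowest p in males. It was at 220, 181, 195, 239 and 231 CPM in control males 1, 2, 3, 4 and 6, and at 151 CPM lowest, 167 median and 184 highest in LKO males. Control male 2 was the only control inside the LKO range. The log2 fold change was -0.34 ± 0.092 (SE; edgeR adjusted p = 0.250). Rps15 (-0.34 ± 0.097) and Rps26 (-0.34 ± 0.10) were close to this size, both at an edgeR adjusted p of 0.266 to 0.274. Rps26 is among the genes mutated in Diamond-Blackfan anaemia, and so is Rps19, whose log2 fold change was smaller (-0.17 ± 0.10). Rps6 was at 366, 302, 356, 425 and 409 CPM in the controls and at 280, 304 and 337 CPM in LKO males (-0.27 ± 0.098), with the same control inside the LKO range.

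Among large-subunit genes, Rpl36 (chromosome 17, 56920416 to 56921243 in mm39, plus strand) had the lowest p. It was at 207, 187, 198, 267 and 277 CPM in the controls and at 158, 171 and 188 CPM in LKO males, a log2 fold change of -0.41 ± 0.11 (edgeR adjusted p = 0.266). Only control male 2 and LKO male 3 touched, at 187 and 188 CPM. Rpl27a was the 1 member whose groups did not overlap in males (1.28% of members, against 1.1% of all genes tested lower without overlap), and it is named for that after its values were seen. It was at 300, 259, 270, 400 and 345 CPM in the controls and at 235, 245 and 258 CPM in LKO males, a log2 fold change of -0.35 ± 0.11 (edgeR adjusted p = 0.274). Rpl5 (-0.23 ± 0.088) and Rpl11 (-0.24 ± 0.088), which bind and inhibit the p53 regulator Mdm2 when they are outside the ribosome, had smaller differences than the median member. The stalk genes Rplp0 and Rplp1, whose products recruit elongation factors, were at -0.26 ± 0.10 and -0.28 ± 0.10, and Rpl23 was at -0.33 ± 0.10.

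Genes with paralogs or copies included both the member nearest to 0 and the one farthest from it. Rpl22l1, the paralog of Rpl22, was level at 24.2, 19.7, 26.2, 24.6 and 23.3 CPM in controls and 20.4, 23.3 and 27.0 CPM in LKO males (log2 fold change -0.0042 ± 0.10), while Rpl22 was at -0.29 ± 0.089. The ratio of Rpl22l1 to Rpl22 in FPKM was 0.238 ± 0.0301 (SD, n = 5) in control and 0.288 ± 0.0391 (SD, n = 6) in LKO males, and 0.234 ± 0.0252 and 0.221 ± 0.0358 (both n = 6) in females. Rpl7l1 (-0.13 ± 0.081) and Rps27l (-0.17 ± 0.087), a paralog that p53 induces, were nearer to 0 than Rpl7 (-0.26 ± 0.089) and Rps27 (-0.66 ± 0.39). Without control male 4 the value of Rpl7l1 was -0.072, and that of Rps27 was -0.23 without control male 6. Rpl3 (-0.14 ± 0.085) was also small, whereas Rpl10 (-0.27 ± 0.097), Rpl36a (-0.33 ± 0.12), Rpl39 (-0.31 ± 0.11) and Rps4x (-0.20 ± 0.097), 4 X-linked genes with copies or paralogs elsewhere, lay within the range of the rest. Whether members differed from each other was not tested.

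**Figure D2:**
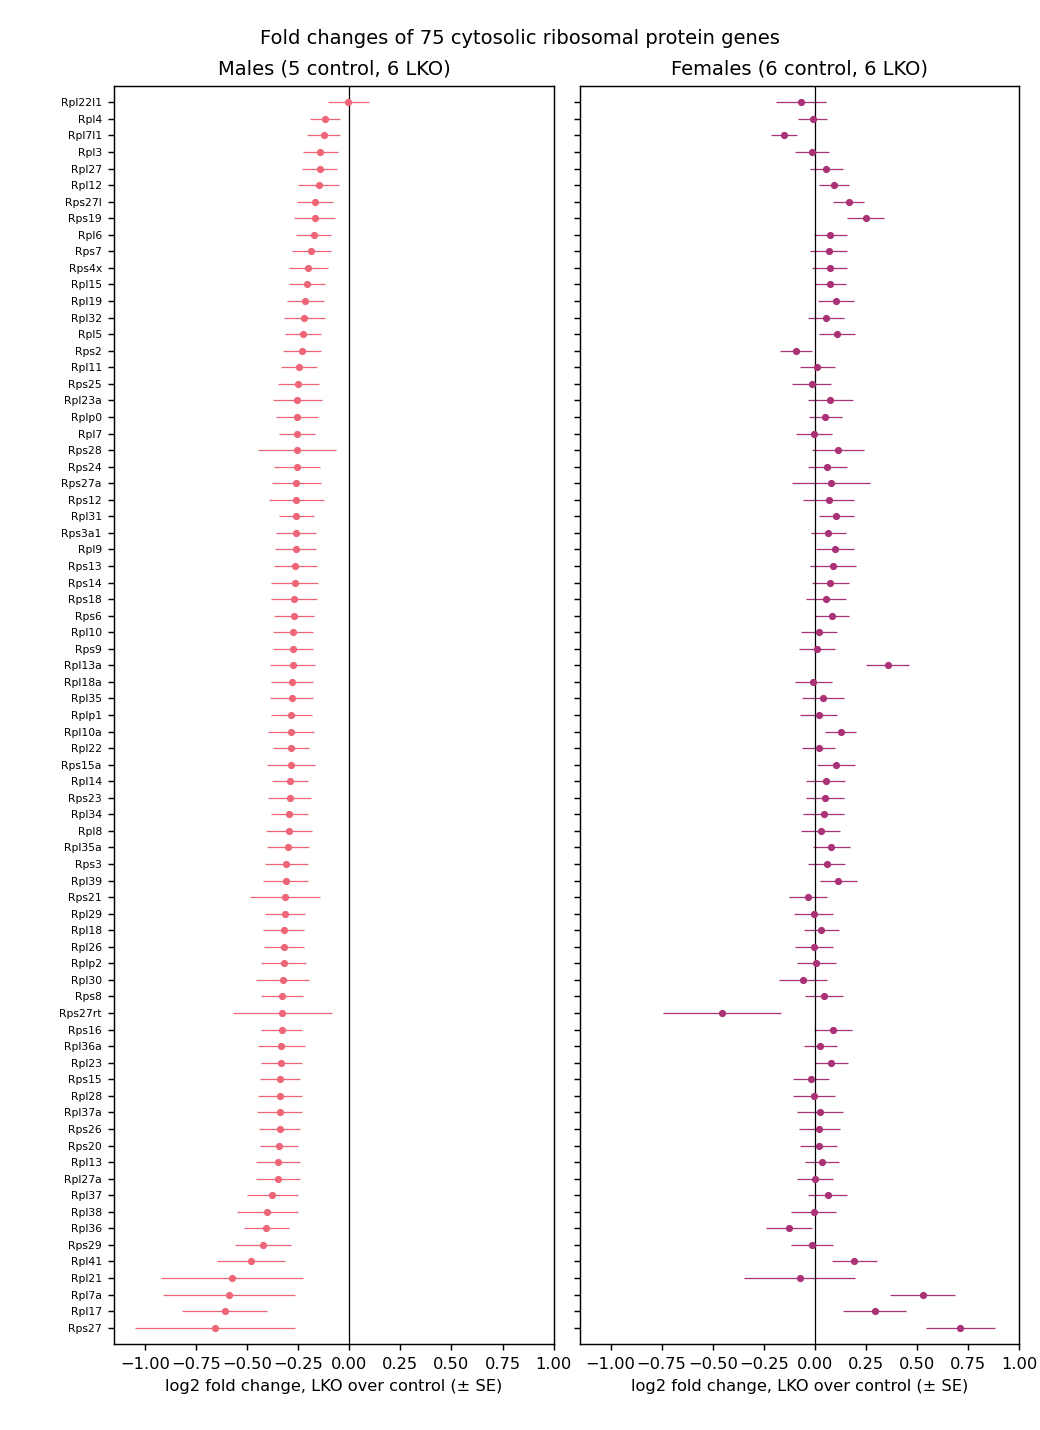
Log2 fold change of LKO over control for 75 of the members, ordered by the male value, with points as the edgeR estimate and bars as ± SE. In males all 75 points lie below 0, and in females 56 lie above and 19 below. Rps27, Rpl21, Rpl7a and Rps27rt have the widest bars in males.

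In females the mean levels of the same transcripts lay close together in both genotypes. The members took a lowest share of 1.66%, a median of 1.77% and a highest share of 1.96% of gene counts in control females, and 1.78%, 1.85% and 2.10% in LKO females. The means were 1.78 ± 0.102% and 1.88 ± 0.114% (SD, n = 6 each), a share 5.57% higher in LKO females, and 5 of the 6 LKO livers lay within the range of the controls. LKO female 1 alone lay above it. The difference in share was 3.03% without LKO female 1 and 7.75% without control female 1, and it stayed above 0 with each of the 12 livers left out in turn. The log2 fold change was above 0 in 58 members and below 0 in 20, against 51.1% above and 48.9% below among the 13684 genes tested, with a median of 0.052 beside 0.0051 for all genes. Without LKO female 1 the median was -0.018 and 45 members were below 0. Without control female 1 it was 0.093 and 7 were below 0, so the direction of the female median rested on LKO female 1.

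No member passed the test in females (edgeR quasi-likelihood test, lowest adjusted p = 0.0514), where 194 genes did (1.42% of those tested). At an unadjusted p under 0.05, 5 members were higher (6.41%, against 8.31% of all genes) and 1 was lower (1.28%, against 7.33%), so both shares were below those of all genes tested. The 5 were Rps27, Rpl13a, Rpl7a, Rps19 and Rps27l, and the lower gene was Rpl7l1. No member had groups without overlap (1.05% of all genes tested were higher and 0.548% lower in that way). DESeq2 and the authors' deposited table both called Rps27 and Rpl7a higher (2.05% and 1.25% of their genes were called higher), and neither called a member lower (1.59% and 0.97% of their genes). Here too the deposited log2 fold changes matched those of DESeq2 (Rps27 at 0.708 in both), so these are not separate evidence.

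Rpl13a, a large-subunit protein that also silences certain mRNAs after interferon treatment, was at 11.2, 11.7 and 13.4 CPM (lowest, median, highest) in control females and at 12.4, 16.0 and 18.4 CPM in LKO females. LKO females 1, 3, 5 and 6 lay above every control. The log2 fold change was 0.36 ± 0.10 (edgeR adjusted p = 0.109). Rpl13a had the lowest mean counts of the members. Of the stretches of its transcript, 57.4% also occurred in Gm45713. How reads were split between Gm45713 and Rpl13a was not tested. In males Rpl13a was at 15.2, 13.2, 14.8, 18.5 and 17.2 CPM in controls and at 10.5, 13.2 and 14.4 CPM in LKO livers (-0.28 ± 0.11). Rps19, the gene most often mutated in Diamond-Blackfan anaemia, was at 168, 188 and 225 CPM in control and 214, 221 and 276 CPM in LKO females (0.25 ± 0.090, edgeR adjusted p = 0.188). All LKO females were above 5 of the 6 controls, and control female 1 lay inside the LKO range. Rps27l was at 116, 125 and 138 CPM and at 125, 137 and 165 CPM (0.17 ± 0.077), and Rpl7l1 at 56.2, 58.7 and 65.1 CPM and at 48.6, 53.4 and 57.8 CPM (-0.15 ± 0.064). Rps20 and Rpl36, with the lowest p in males, were at 0.019 ± 0.090 and -0.13 ± 0.11 in females.

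**Figure D3:**
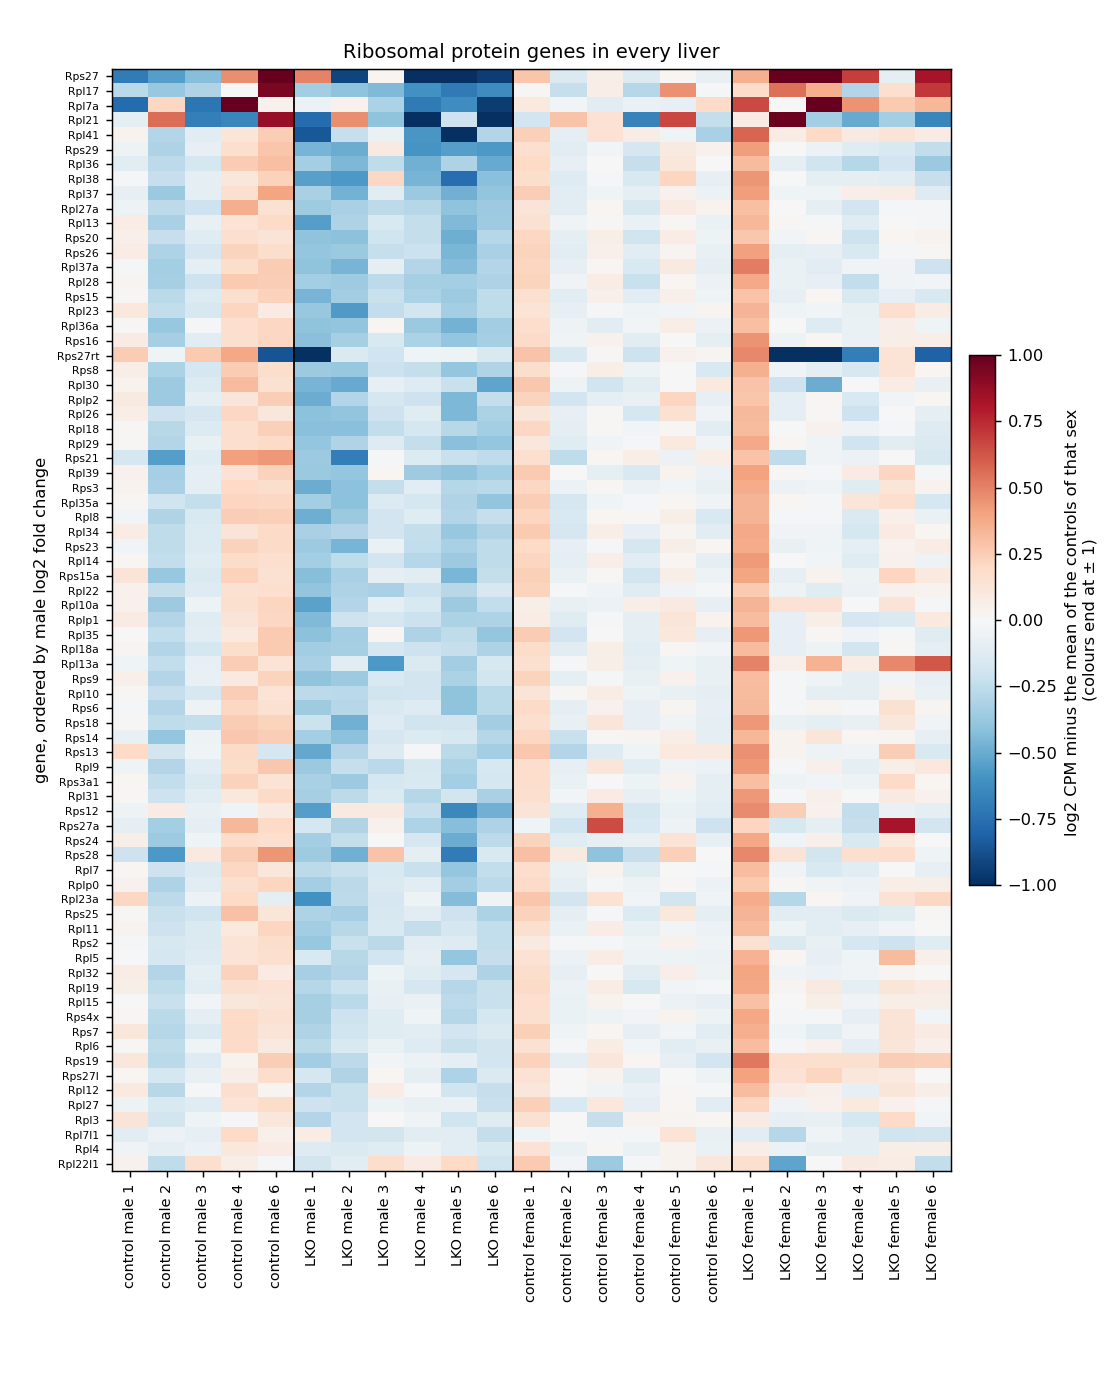
Log2 CPM of 75 members in each of the 23 livers, relative to the mean of the control livers of that sex, with red above and blue below and colours ending at ± 1. Columns are livers and rows are genes ordered by the male fold change. Most members move together within a liver (control males 2 and 3 and the LKO males are low, LKO female 1 is high), while Rps27, Rps27rt, Rpl17, Rpl7a, Rpl21 and Rps27a vary on their own.

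Most members were high or low together in a given liver, in both genotypes. In control males 2 and 3, 75 of 78 members were below the control mean, in control male 1 it was 25, and in control males 4 and 6 only 3 and 4. In the LKO males, between 65 (LKO male 3) and 78 (LKO male 6) were below it. The mean over members of log2 CPM, relative to the control mean, was -0.0015, -0.26, -0.12, 0.19 and 0.19 in control males 1, 2, 3, 4 and 6. In LKO males it ran from -0.37 to -0.13, with a median of -0.31, so control males 2 and 3 lay within the range of the LKO group or at its edge. In females it ran from -0.097 to 0.18 in controls and from -0.075 to 0.34 in LKO livers, where only LKO female 1 was above the controls.

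The difference between the sexes in the genotype effect was tested directly as an interaction, on 14503 genes. The log2 difference (LKO minus control in females, minus the same in males) was above 0 in 75 members and below 0 in 3, against 51% and 49% of all genes, with a median of 0.33 beside 0.0075 for all genes. The 3 members below 0 were Rps27rt (-0.13 ± 0.41), Rpl22l1 (-0.065 ± 0.16) and Rpl7l1 (-0.024 ± 0.099). No member passed the test (edgeR, lowest adjusted p = 0.142), and neither did any other gene (0% called). At an unadjusted p under 0.05, 60 members (76.9%) were above 0, against 6.98% of all genes tested, and 0 were below 0, against 5.94%. Without control male 4, control male 6 or LKO female 1 that count was 35, 34 and 37. Here too most members were high or low together in a liver, so the count is not of independent genes. Rpl13a had the lowest p (0.63 ± 0.15). It was the 1 member DESeq2 called (adjusted p = 0.0396, with 0.344% of the genes in that fit called above 0). Its mean counts were the lowest of the members, and 57.4% of the stretches of its transcript also occurred in Gm45713. This value holds for the row of Rpl13a, and the split of reads between that row and Gm45713 was not tested. Rpl41 (0.67 ± 0.20), which encodes the smallest ribosomal protein, and Rpl23 (0.41 ± 0.12) were also among the 4 with the lowest p. Rpl41 was at 381, 303, 343, 403.5 and 440 CPM in control males and at 181, 276 and 355 CPM in LKO males, and at 241, 305 and 356 CPM in control and 318, 326 and 451 CPM in LKO females. The groups overlapped in both sexes. Sex coincides with the deposited table, so the sexes and the tables cannot be told apart, and these values share their samples with the male and female comparisons above.

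The largest female value was that of Rps27, a zinc-finger protein of the small subunit (chromosome 3, 90119829 to 90120958 in mm39, minus strand), and it was mirrored by its retrogene Rps27rt (chromosome 9, 114811434 to 114811807, minus strand). Rps27 was at 35.5, 38.4 and 47.5 CPM in control females and at 36.7, 66.3 and 88.0 CPM in LKO females, where livers 2, 3, 4 and 6 lay above every other female liver. Its log2 fold change was 0.71 ± 0.17 (edgeR adjusted p = 0.0514; DESeq2 adjusted p = 0.00459). Rps27rt was at 78.1, 91.2 and 110 CPM in control females and at 27.8, 53.6 and 126 CPM in LKO females (-0.45 ± 0.29), and LKO livers 2, 3, 4 and 6 were the lowest. Of the 50-base stretches of the retrogene's transcript, 91.1% occurred in another gene, mostly Rps27, and 63.1% of those of Rps27 occurred in Rps27rt. With rows named as pseudogenes of a member, and Rps27rt, counted together with their parent, the female value of Rps27 was 0.0062 ± 0.11 (edgeR adjusted p = 0.988), so the call by DESeq2 and in the authors' table held for the row of Rps27 and not for the summed copies.

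The split of reads between parent and retrogene varied between livers. Counts of Rps27rt per count of Rps27 lay between 2.195 and 2.47 in all 6 control females. In LKO females 1 to 6 they were 2.51, 0.467, 0.316, 0.882, 2.70 and 0.743. In control males 1, 2, 3, 4 and 6 they were 2.63, 1.94, 2.196, 1.29 and 0.324, and in LKO males 1 to 6 they were 0.368, 2.33, 1.17, 2.99, 2.86 and 2.35. High and low ratios thus occurred in both male genotypes and in LKO females, and only the control females were alike. The sum of both genes was 130 ± 15.6 CPM in control and 131 ± 23.4 CPM in LKO females (SD, n = 6 each), and 129 ± 25.7 CPM in control (n = 5) and 93.5 ± 9.005 CPM in LKO males (n = 6). The cause of the split was not tested.

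**Figure D4:**
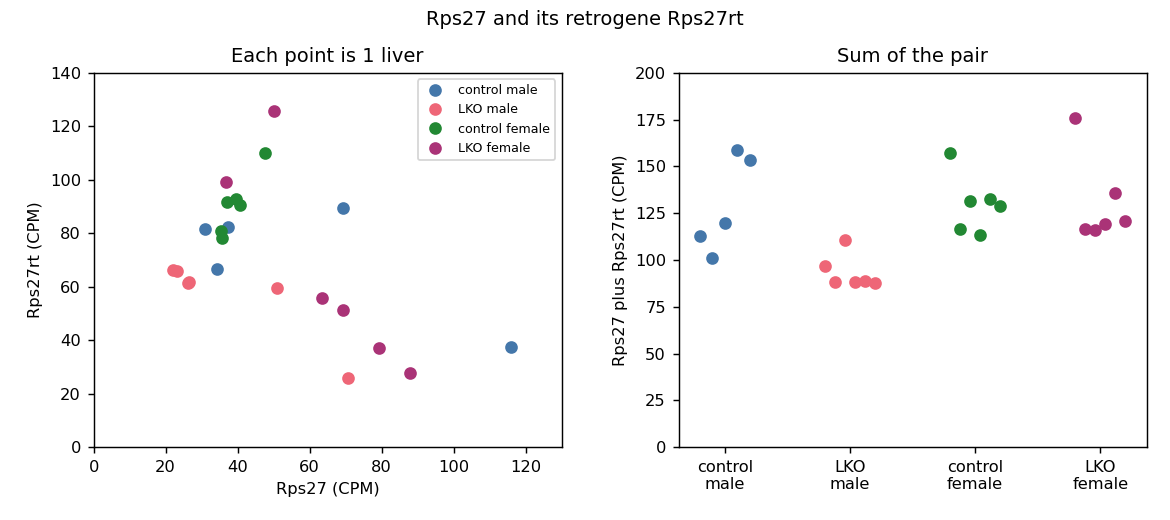
Left, Rps27rt against Rps27 in CPM, 1 point per liver. Right, the sum of both in CPM by group, 1 point per liver. The 6 control females lie together at 35.5 to 47.5 CPM of Rps27, while LKO females 2, 3, 4 and 6 have more Rps27 and less Rps27rt, with sums between 116 and 121 CPM.

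Some other members with copies also varied widely. For each member the highest coefficient of variation within a group was taken. Its median was 13.7% for the 28 members with at least 50% of their stretches shared and 14.7% for the other 50. The share was taken over the longest coding transcript. Rpl21 and Rpl17 shared stretches with 82 and 51 other genes, yet their shares of 26.2% and 44.7% placed them among the other 50. These medians therefore cannot show whether copies went with spread. Rpl7a was at 48.2, 95.4, 49.8, 196 and 84.8 CPM in control males and at 42.7, 59.9 and 85.0 CPM in LKO males, and without control male 4 its male log2 fold change moved from -0.59 ± 0.32 to -0.15. In females Rpl7a was at 51.7, 54.2 and 63.9 CPM in control and 55.8, 73.3 and 128 CPM in LKO livers (0.53 ± 0.16), with LKO female 3 highest, and with its copies summed the value was 0.38 ± 0.13 (edgeR adjusted p = 0.160). Rpl21 ranged from 13.7 to 63.1 CPM over the male livers and from 18.1 to 56.7 CPM over the female livers, with overlap in both sexes. Rpl17 was at 140 CPM in control male 6 and between 49.4 and 82.9 CPM in all other control livers. Rps27a, which encodes ubiquitin fused to a ribosomal protein, was at 70.3, 75.8 and 127 CPM in control and 69.1, 74.2 and 144 CPM in LKO females, with 1 high liver in each group. The median male log2 fold change of these 28 was -0.27 and that of the other 50 was -0.29, all 78 below 0. With copies summed, 77 of 77 members were below 0 in males (median -0.28).

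Other transcripts of similar kind were lower in the same male livers. All 50 listed short nuclear genes of the respiratory chain and ATP synthase were below 0 (median -0.25), 37 of them at an unadjusted p under 0.05, none by edgeR's adjusted p and 5 by DESeq2. Ndufa12 (-1.17 ± 0.29) and Ndufa2 (-0.37 ± 0.097), both subunits of complex I, had the lowest p. In females their median was -0.0051, with 26 below 0. Ribosomal protein pseudogene rows were below 0 in 63 of 70 tested in males (median -0.28) and in 37 of 67 in females (median -0.016). Among all other protein-coding genes the male value followed gene length. The median was -0.22 in the 241 genes under 1000 bases (83% of them below 0), -0.15 in the 1302 of 1000 to under 2000 bases, -0.023 in the 3790 of 2000 to under 4000 bases and 0.058 in the 6922 of 4000 bases or more. The members in the same classes had medians of -0.30 (n = 12), -0.31 (n = 32), -0.27 (n = 28) and -0.30 (n = 6). Each was below the median of the other genes in its class. These classes were set after the data were seen, and they use the deposited gene length, which can exceed that of the transcript. Rpl35a had a gene length of 3526 bases and a longest coding transcript of 519. The member medians therefore cannot show whether the values follow transcript length. In females the medians of other genes ran only from 0.053 to -0.0065. Control male 4 had 6.53% of its counts in other protein-coding genes under 1000 bases, against 4.15 to 4.81% in the other control males, and it also had the lowest total count and the fewest genes with counts (18232). Without control male 4 the male median of the members was -0.23. Mitochondrially encoded genes took 4.38 to 5.07% of counts in control and 4.83 to 5.13% in LKO males, and 4.10 to 4.61% and 4.55 to 5.22% in females, so that the groups overlapped in both sexes, with a higher mean in LKO livers (4.62 and 4.96% in males, 4.34 and 4.89% in females). The part of length, depth or RNA quality in the male result was not tested.

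**Figure D5:**
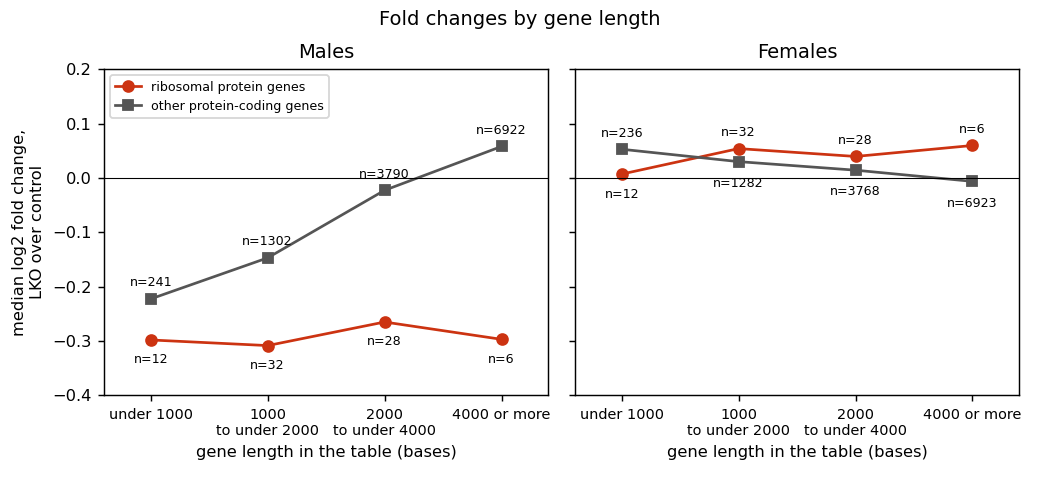
Median log2 fold change of LKO over control by gene length, for the ribosomal protein genes and for all other protein-coding genes tested. In males the other genes run from -0.22 to 0.058 with length while the members stay between -0.31 and -0.27, and in females all medians lie between -0.0065 and 0.060.

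Further ribosomal proteins whose symbols the name rule misses were also below 0 in males. Rpsa, Fau and Rack1 had male log2 fold changes of -0.23 ± 0.099, -0.29 ± 0.12 and -0.20 ± 0.087, none past the adjusted threshold. Fau encodes a fusion of a ribosomal protein with a ubiquitin-like protein. The TOP class beyond the ribosome was less uniform: of 23 translation factors and related TOP genes, 16 were below 0 in males, 7 of them lower and 1 higher at an unadjusted p under 0.05, none called by edgeR or DESeq2, with a median of -0.099. The elongation factor subunits Eef1b2 (-0.30 ± 0.099) and Eef1d (-0.25 ± 0.088) were near the members, while Eef1a1 (-0.054 ± 0.084) and Eef2 (0.013 ± 0.095), the main elongation factors, were near 0. In females 17 of 23 were above 0 (median 0.033), with Nap1l1 (0.27 ± 0.10) and Eif4b (-0.22 ± 0.088) at the lowest p.

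Genes that build ribosomes lay on both sides of 0. Of 36 ribosome biogenesis factors, 20 were below 0 in males (median -0.018), 2 lower and 2 higher at an unadjusted p under 0.05, and in females 26 were above 0 (median 0.043), 3 of them at an unadjusted p under 0.05. None was called by edgeR or DESeq2 in either sex. Tsr1, a factor of small-subunit maturation, was at 1.87 ± 0.401 CPM (SD, n = 5) in control and 3.38 ± 0.862 CPM (SD, n = 6) in LKO males without overlap (0.84 ± 0.22, edgeR adjusted p = 0.249), at a low level. Nop10, part of the box H/ACA complexes that modify ribosomal RNA, was at -0.32 ± 0.089 in males, and its partner Nhp2 at 0.31 ± 0.092 in females. The 12 RNA polymerase I genes, which serve ribosomal RNA synthesis, had medians of 0.029 in males and -0.025 in females. Of 19 genes that control TOP translation or ribosome production, 12 were above 0 in males (median 0.074). Eif4ebp1, an mTOR target that represses translation, was at -0.34 ± 0.098, and Myc, a transcription factor that drives ribosome production, at 1.30 ± 0.41, both at an edgeR adjusted p of 0.268 to 0.274. Myc ranged from 6.31 to 19.1 CPM in control and from 12.8 to 55.1 CPM in LKO males. In females the median of the 19 genes was -0.018, with Mtor at 0.37 ± 0.10 (edgeR adjusted p = 0.0922; called by DESeq2 at an adjusted p of 0.0387) and Tsc1, its upstream inhibitor, at -0.22 ± 0.082.

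Marker lists of the cell types that a liver piece can hold were compared in the same fits. In males the median log2 fold change was -0.27 over 8 hepatocyte, 0.27 over 9 macrophage, 0.093 over 7 lymphocyte, 0.096 over 7 stellate, 0.079 over 7 endothelial and -0.26 over 5 cholangiocyte markers, and -0.74 over the 2 of 6 neutrophil markers that could be tested, with no marker called by edgeR or DESeq2. It was 0.24 over 7 proliferation markers, of which all 7 were above 0, and -0.54 over 5 erythroid genes, of which all 5 were below 0. The erythroid sum ranged from 473 to 1221 CPM in control and from 293 to 866 CPM in LKO males. The macrophage sum ranged from 451 to 935 CPM and from 717 to 1114 CPM. In females the median of the erythroid genes was 0.50 (5 of 5 above 0) and that of the hepatocyte markers -0.25. It was 0.49 over 6 lymphocyte, 0.38 over 5 cholangiocyte, 0.11 over 7 stellate and 0.11 over 7 proliferation markers, all of them above 0. Over 7 endothelial markers it was -0.14 and over 9 macrophage markers -0.00059. The sum over the 8 lymphocyte markers was 41.7 CPM in LKO female 5 and 7.70 to 15.8 CPM in the other LKO females. In control females this sum was 8.06 to 14.1 CPM, and its median was 11.9 CPM in control and 11.5 CPM in LKO females. Spp1 (0.66 ± 0.12, edgeR adjusted p = 0.0135) was the 1 marker called by edgeR, and DESeq2 called Spp1 (adjusted p = 7.99e-05) and the stellate marker Col3a1 (0.74 ± 0.23 by edgeR; DESeq2 adjusted p = 0.0385). The part of cell makeup in the ribosomal protein values was not tested.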

How the data were processed

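Bulk mRNA sequencing of 23 livers was deposited as 1 table per sex. Per the labels' protocols, mRNA was isolated with poly-T beads and libraries were made with random hexamers and dUTP. HISAT2 2.0.5 and the build mm39 are named in the submitters' processing notes. The counter and the annotation are not given in the sources used here, nor is whether counting used the strand. The authors deposited raw read counts, FPKM and normalized signal per sample. They also deposited log2 fold changes and p-values with adjusted p-values for LKO against control per sex. The tool is not named in the sources used here, but for the members the log2 fold changes matched the DESeq2 fit described below.

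Counts were tested in R 4.3.3 with edgeR 4.0.16: filterByExpr, TMM factors, the quasi-likelihood test and Benjamini-Hochberg adjustment over all genes tested, per sex and for the interaction over all 23 samples. Calls are at an adjusted p below 0.05. CPM and log2 fold changes are from these fits. DESeq2 1.42.0, limma-trend 3.58.1 on log2(FPKM + 1) and log2(FPKM + 0.1), other scalings, filters, member rules, a replicate block and leaving out each replicate were alternatives. The summing of copies into their parent gene was added after seeing the data. The fits were tested on simulated data. The members and gene lists were chosen with earlier results of these data known.

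Named members are the 6 lowest unadjusted p per sex, the 4 lowest in the interaction, the 3 highest and 3 lowest FPKM, paralog pairs, and Rplp0, Rps6, Rpl5, Rpl11 and Rps27a, with up to 2 genes of each other list per sex. Others were named after their values were seen. Some genes within this rule are not reported here, and the figures by gene leave them out. Within each group, no 2 libraries agreed within sampling noise. Shared 50-base stretches were counted between GENCODE M21 transcripts.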

Additional observations from a re-analysis of the deposited data

Results flagged for a closer look

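Single livers stood apart in 18 of 112 groups of values tested (Dixon's test at the 95% level, which chance alone marks in about 1 in 20 groups), and 10 of these were the same liver, LKO female 1, as the highest of its group. Its summed share of counts was 2.10%, against 1.78 to 1.86% in the other LKO females. It was also highest for Rpl10 (812 CPM), Rplp0 (686 CPM), Rpl7 (486 CPM), Rpl41 (451 CPM), Rpl11 (373 CPM), Rps15 (359 CPM), Rpl36 (293 CPM), Rps26 (291 CPM) and Rps19 (276 CPM). Control female 1 was highest in its group for Rplp0 (655 CPM) and Rpl22 (169 CPM). LKO male 3 was highest for Rpl39 (97.9 CPM, the others 73.2 to 76.4) and Rpl36a (76.6 CPM, the others 54.4 to 59.3). Of the members, only 27 named ones were tested in this way, so other members may also stand apart in a liver. Rpl21 was high in LKO female 2 (56.7 CPM) and Rpl7l1 in control female 5 (65.1 CPM). Rps27a was high in control female 3 (127 CPM, the others 70.3 to 78.9) and in LKO female 5 (144 CPM, the others 69.1 to 94.2).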

How the results depend on the processing

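In males the median of the members lay between -0.29 and -0.22 over 13 alternatives, and between -0.34 (without control male 2) and -0.23 (without control male 4) when each replicate was left out, with 77 to 78 members below 0. The number of genes called was 1, and it was 2 with library size alone, 2 with no filter, 3 with at least 10 counts in every sample, 106 with DESeq2, 2 with the replicate block, 5 in the fit of all 23 samples, and 1 to 2 with a replicate left out. DESeq2 called 1 member.
In females 1 member, Rps27, was called with library size alone, with no filter and with at least 10 counts in every sample, 2 with DESeq2, and 0 to 1 with a replicate left out. The count of members below 0 was 7 with library size alone and 7 to 45 with a replicate left out, where the median ran from -0.018 to 0.093. Genes called were 554 with DESeq2, 334 with the replicate block, 94 in the fit of all 23 samples and 87 to 233 with a replicate left out. Small values changed sign: with library size alone Rpl22l1 in males was 0.052, and in females Rps15 was 0.018, Rpl3 0.026 and Rpl7 0.032. Rpl7 was 0.0012 with at least 10 counts and Rpl21 0.0046 with copies summed. With a replicate left out, values that crossed 0 ran from -0.054 to 0.044 for Rpl22l1 in males. In females the ranges were -0.029 to 0.064 for Rps20, -0.082 to 0.013 for Rps15, -0.062 to 0.070 for Rps26, -0.038 to 0.055 for Rplp1, -0.39 to 0.083 for Rpl21, -0.13 to 0.0097 for Rpl22l1, -0.057 to 0.019 for Rpl3, -0.069 to 0.032 for Rpl7, -0.040 to 0.048 for Rpl10, -0.026 to 0.069 for Rpl22, -0.027 to 0.065 for Rpl36a, -0.050 to 0.045 for Rpl11 and -0.11 to 0.24 for Rps27a. In the interaction they were -0.086 to 0.017 for Rpl7l1 and -0.13 to 0.011 for Rpl22l1.
In the interaction DESeq2 called 88 genes and 1 member, and 0 to 17 genes were called with a replicate left out (17 without control male 4). The members below 0 were 5 with a minimum of 10 counts, 1 with further ribosomal proteins in place of paralogs, and 1 to 3 with a replicate left out.
With the replicate block the medians were -0.27, 0.046 and 0.31 in males, females and the interaction, and no member was called. The labels tie the numbers to no shared source. Same-numbered livers correlated at -0.393 to 0.423 in males, with 1 of 5 pairs over 0.1 and 1 best with its own number. In females they correlated at -0.0068 to 0.201, with 5 of 6 pairs over 0.1 and 4 best with their own number, so that not every pair was over 0.1 and the numbers were not taken as pairing the samples. The cause of these differences was not tested.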
